A study of Mus musculus with 8 samples.

Results

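The glycolysis enzymes of the testis were followed here, in their sperm and somatic forms, in Ing2-/- mice. The genes were 36 that were listed by name: the enzymes from hexokinase to lactate dehydrogenase, the glucose and lactate carriers, the sperm subunit of pyruvate dehydrogenase and a pair of regulators of phosphofructokinase. Of the 36, 33 had a probe set that the annotation gave to that gene alone, among 19938 such genes on the array. The 33 were 7 sperm isozymes, 17 somatic or widely expressed enzymes, 7 transporters and transporter partners, and 2 regulators. Gapdh was measured only by probe sets that it shared with other genes, and Gpi1 and Eno1 were not analysed here.

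Glycolysis splits glucose into pyruvate, which lactate dehydrogenase turns into lactate. In the testis the pathway is divided between cells. Sertoli cells take up glucose and export lactate, on which meiotic and later germ cells live, while spermatids build their own set of enzymes, some of them retrogenes of X-linked or widely expressed genes, that are bound along the sperm tail and power swimming.

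The mice were 5 Ing2-/- males and 3 Ing2+/+ males, all 2 to 3 months old, with 1 array of whole testis RNA for each mouse. The Ing2-/- mice carried on both alleles a Cre-loxP deletion that included exon 2 of Ing2, made by targeting in embryonic stem cells. The deletion was germline, so every cell of the body lacked the gene; it was made with EIIa-Cre mice, whose Cre acts in the early embryo, and the transgene was then bred out by crossing to C57BL/6J. Per the labels the Ing2+/+ males were littermates. ING2 is a chromatin reader of the histone mark H3K4me3 and belongs to the Sin3-HDAC complex.

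Levels are deposited log2 values from an Affymetrix Mouse Gene 1.0 ST array, normalized by RMA (robust multi-array average). A gene was represented by its brightest probe set. A difference is the log2 mean of Ing2-/- testes less that of Ing2+/+ testes, with the standard error (SE) of the limma fit. A gene was called, higher or lower, when its limma p after adjustment by Benjamini-Hochberg across every probe set of the array was under 0.05. Ing2 itself had 5.06, 5.64, 5.21, 5.29 and 5.25 in Ing2-/- testes, against 7.43, 7.60 and 7.34 in Ing2+/+ testes, so every library followed its label (difference -2.16, SE 0.127, limma adjusted p = 0.000395). Where its probes lie relative to exon 2 was not examined. The median level of an array was 6.46 to 6.53 for Ing2-/- and 6.41 to 6.45 for Ing2+/+. Ing2-/- replicate 3 stood apart: its mean correlation with its own group was 0.983, against 0.990 to 0.992 for the other Ing2-/- arrays and 0.995 for each Ing2+/+ array. Results are therefore also given without it where leaving it out changed a call or moved a value by more than 1.5 times.

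Among the 33 measured genes, 1 was called higher in Ing2-/- testes and 0 were called lower by limma. The called gene was Pfkl, the liver form of phosphofructokinase. Over all genes, 1.97% were called higher and 3.01% lower, so the glycolysis genes stood near this background. At an unadjusted limma p under 0.05, 9 of the 33 lay higher and 4 lower, beside 16.5% and 13.5% of all genes. In 8 of the 33, every Ing2-/- array lay above every Ing2+/+ array, and in 9 every Ing2-/- array lay below; over all genes these shares were 16.7% and 14.9%. The median difference of the 33 was -0.04 (-0.03 without replicate 3), and that of all genes was 0.02.

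With Ing2-/- replicate 3 left out, more genes passed the threshold. Then 8 of the 33 genes were called higher and 4 lower by limma, beside 8.72% and 7.76% of all genes. The genes called higher were Tpi1, Slc16a1, Slc2a1, Pgam1, Hk2, Aldoc, Pfkl and Ldhb, and those called lower were Aldoart1, Aldoart2, Pdha2 and Pfkm. By role they were 3 sperm isozymes lower, 6 somatic enzymes higher and 1 lower, and 2 transporters higher.

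**Figure D1:**
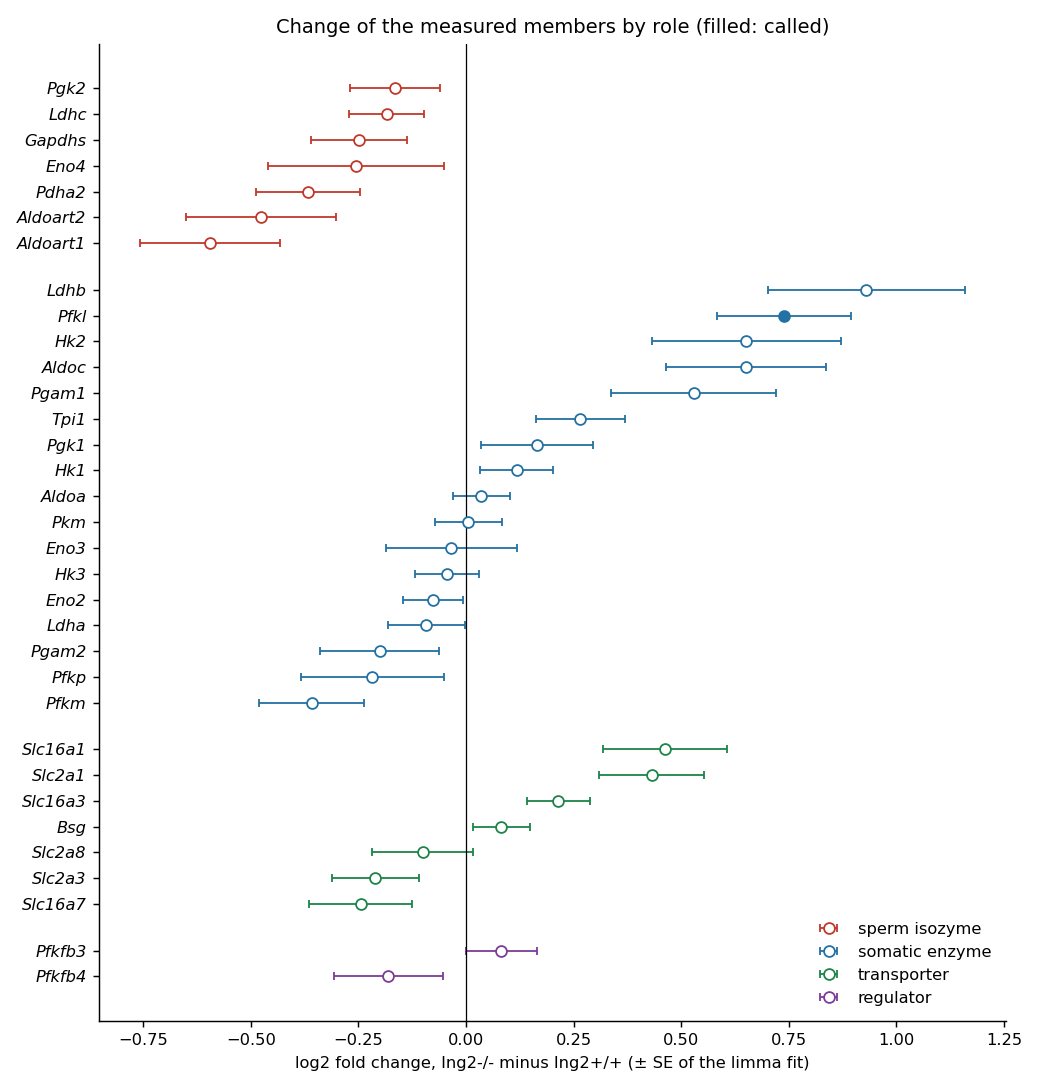
Difference in log2 level, Ing2-/- (n = 5) minus Ing2+/+ (n = 3), of the 33 measured genes by role, with bars of 1 SE of the limma fit; the filled point is the gene that was called. All 7 sperm isozymes lie below 0, between -0.59 and -0.16, and somatic enzymes lie on both sides, between -0.36 and 0.93.

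The 7 sperm isozymes all had a difference below 0, with a median of -0.26 (range -0.59 to -0.16), and 0 of the 7 were called by limma. In 5 of the 7 every Ing2-/- array lay below every Ing2+/+ array, as in 14.9% of all genes, and 3 were lower at an unadjusted limma p under 0.05, as were 13.5% of all genes. Without Ing2-/- replicate 3 the median was -0.16. The medians of the 7 in single arrays, relative to the Ing2+/+ mean, were -0.14, -0.19, -0.75, -0.14 and -0.26 in Ing2-/- testes, against -0.07, 0.01 and 0.01 in Ing2+/+ testes. All Ing2-/- testes lay lower than all Ing2+/+ testes, and replicate 3 lay far below the rest. Round spermatid markers, whose score is described with the other cell types, were -0.90 to -0.11 in Ing2-/- testes, against -0.01 to 0.00 in Ing2+/+ testes. They were lowest in replicate 3 too, and -0.33 to -0.11 without it. Their part in the result was not tested. RNA of a whole testis does not tell fewer cells of a type from less RNA per cell, and this holds for every gene below.

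Aldoart1 and Aldoart2 are aldolase retrogenes expressed in male germ cells; aldolase splits fructose bisphosphate. Aldoart1 had 9.17, 9.40, 8.58, 9.09 and 8.94 in Ing2-/- testes, against 9.52, 9.68 and 9.70 in Ing2+/+ testes. Its difference was -0.59 (SE 0.162), the lowest of the 33, and missed the threshold (limma adjusted p = 0.0671, and 0.0252 without Ing2-/- replicate 3). Each Ing2-/- testis lay below each Ing2+/+ testis, although replicate 2 came close. Aldoart2 had 9.96, 10.03, 9.23, 9.98 and 9.84 in Ing2-/- testes, against 10.18, 10.29 and 10.39 in Ing2+/+ testes. The groups were separate here too, with replicate 3 far below (difference -0.48, SE 0.175, limma adjusted p = 0.124, and 0.0247 without replicate 3, where the difference was -0.33). 

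Pdha2 is the testis-specific retrogene for the E1 alpha subunit of pyruvate dehydrogenase, which turns pyruvate into acetyl-CoA in the mitochondrion; its parent gene Pdha1 lies on the X chromosome, which is silenced in meiosis. Pdha2 had 8.29, 8.19, 7.76, 8.26 and 8.26 in Ing2-/- testes, against 8.45, 8.58 and 8.52 in Ing2+/+ testes. The groups did not overlap, and 4 of the 5 Ing2-/- testes lay within a narrow band (difference -0.37, SE 0.121, limma adjusted p = 0.100, and 0.0224 without replicate 3).

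Gapdhs, the sperm glyceraldehyde phosphate dehydrogenase that is anchored to the fibrous sheath of the tail, had 11.89, 11.91, 11.44, 11.89 and 11.80 in Ing2-/- testes, against 12.01, 12.05 and 12.04 in Ing2+/+ testes. The separation was complete but small outside replicate 3, and the difference of -0.25 was -0.16 without it (SE 0.111, limma adjusted p = 0.184 with all arrays). Ldhc, the lactate dehydrogenase of spermatocytes, spermatids and sperm, had 12.25, 12.16, 11.90, 12.25 and 12.16 in Ing2-/- testes, against 12.34, 12.32 and 12.33 in Ing2+/+ testes. The Ing2+/+ testes were almost equal and all Ing2-/- testes lay under them (difference -0.18, SE 0.0871, limma adjusted p = 0.206).

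The 2 sperm isozymes whose groups overlapped were Pgk2 and Eno4. Pgk2, the autosomal retrogene that stands in for X-linked Pgk1 when the X chromosome is silent, had 11.59, 11.52, 11.24, 11.74 and 11.62 in Ing2-/- testes, against 11.71, 11.72 and 11.69 in Ing2+/+ testes. Ing2-/- replicate 4 was the highest of all 8 arrays (difference -0.16, and -0.09 without replicate 3, SE 0.105, limma adjusted p = 0.340 with all arrays). Eno4, an enolase needed for sperm motility in mice, had 8.62, 8.53, 7.72, 8.68 and 8.22 in Ing2-/- testes, against 8.54, 8.58 and 8.71 in Ing2+/+ testes. Only replicates 3 and 5 lay clearly below the Ing2+/+ range, and the difference of -0.26 was -0.10 without replicate 3 (SE 0.204, limma adjusted p = 0.451 with all arrays).

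**Figure D2:**
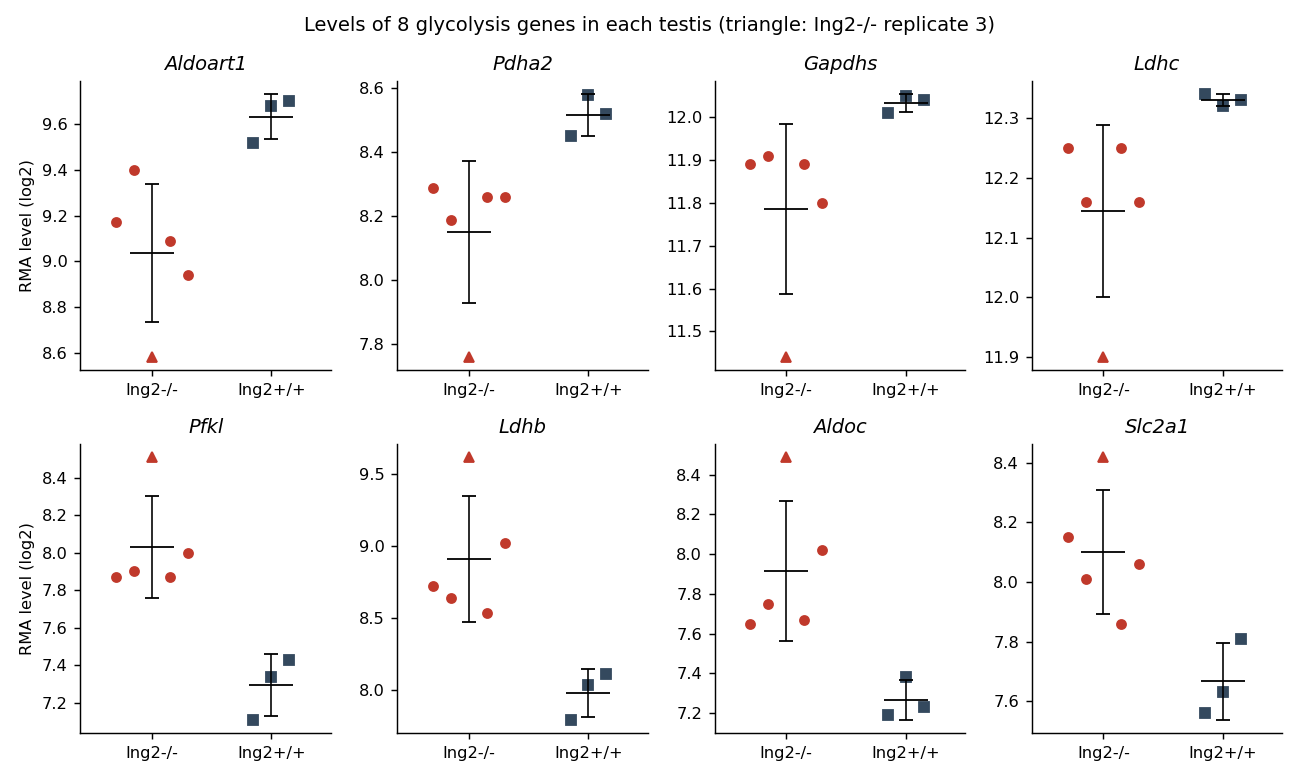
RMA log2 levels of 4 sperm isozymes (top) and of 3 somatic enzymes and the carrier Slc2a1 (bottom) in each Ing2-/- (red, n = 5, replicate 3 as a triangle) and Ing2+/+ (blue squares, n = 3) testis, with the mean and SD as a black line and bar; each panel has its own axis. In each panel the 2 groups do not overlap, and replicate 3 is the Ing2-/- array farthest from Ing2+/+. The genes shown are all from those with separate groups. In 16 of the 33 measured genes the groups overlapped, among them the sperm isozymes Pgk2 and Eno4. Of all genes, 16.7% had every Ing2-/- array above every Ing2+/+ array and 14.9% had every one below.

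The 17 somatic enzymes were split: 10 had a difference above 0 and 7 below, with a median of 0.04 (range -0.36 to 0.93), and of 0.07 without Ing2-/- replicate 3. Pfkl was called higher, and in 5 of the 17 all Ing2-/- arrays lay above all Ing2+/+ arrays, in 2 below, and in 10 the groups overlapped; over all genes 16.7% lay above and 14.9% below. The Sertoli cell marker score was 0.40 to 1.22 in Ing2-/- testes (0.40 to 0.64 without replicate 3), against -0.02 to 0.01 in Ing2+/+ testes. Its part was not tested either. Phosphofructokinase commits sugar to glycolysis, and its 3 genes are named for liver (Pfkl), muscle (Pfkm) and platelet (Pfkp). Pfkl had 7.87, 7.90, 8.51, 7.87 and 8.0 in Ing2-/- testes, against 7.11, 7.34 and 7.43 in Ing2+/+ testes, a fold of 1.67 (difference 0.74, SE 0.156, limma adjusted p = 0.0387). All Ing2-/- testes were above all Ing2+/+ testes. The call held without Ing2-/- replicate 3 (0.62, limma adjusted p = 0.00628) or 4 (0.78, adjusted p = 0.0419) and was lost when any other array was left out (adjusted p between 0.055 and 0.153).

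Pfkm and Pfkp, in contrast, had differences below 0. Pfkm had 9.98, 9.97, 9.44, 9.87 and 9.76 in Ing2-/- testes, against 10.12, 10.14 and 10.23 in Ing2+/+ testes. Its groups were separate, and the gene was called lower when Ing2-/- replicate 3 was left out (difference -0.36 with all arrays, SE 0.122, limma adjusted p = 0.106; -0.27 and 0.0443 without replicate 3). Pfkp ranged over 9.54 to 10.32 in Ing2-/- testes, against 10.29 to 10.34 in Ing2+/+ testes, with overlap (difference -0.22, and -0.08 without replicate 3, SE 0.166, limma adjusted p = 0.431 with all arrays).

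By its brightest probe set Ldhb, the heart-type subunit of lactate dehydrogenase, had the highest difference of the 33. It had 8.72, 8.64, 9.62, 8.53 and 9.02 in Ing2-/- testes, against 7.79, 8.03 and 8.11 in Ing2+/+ testes. The gap between the groups was wider than the spread of the Ing2+/+ testes, yet the gene just missed the threshold (difference 0.93, SE 0.229, limma adjusted p = 0.0536, and 0.0111 without Ing2-/- replicate 3). A second Ldhb probe set gave 0.69 (SE 0.301, limma adjusted p = 0.176), also with separate groups, and 0.43 without replicate 3. That 0.69 is under the 0.74 of Pfkl. Probe sets of the same chromosome mostly had neighbouring numbers. The second Ldhb probe set was numbered beside that of Gys2, on chromosome 6 like Ldhb. The brightest was numbered between those of Pygm and Pgam1, on chromosome 19. Where the probes lie was not examined. Ldha, the muscle-type subunit, ranged over 12.03 to 12.38 in Ing2-/- testes, against 12.35 to 12.41 in Ing2+/+ testes, with overlap (difference -0.09, and -0.03 without replicate 3, SE 0.0885, limma adjusted p = 0.541 with all arrays). 

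Hk2, Aldoc and Pgam1 had separate groups as well, with Ing2-/- testes above. Hk2, a hexokinase of muscle and of growing cells, had 8.82, 8.69, 9.71, 8.74 and 8.80 in Ing2-/- testes, against 8.18, 8.28 and 8.44 in Ing2+/+ testes (difference 0.65, SE 0.220, limma adjusted p = 0.104, and 0.00992 without Ing2-/- replicate 3). Aldoc, the brain-type aldolase, had 7.65, 7.75, 8.49, 7.67 and 8.02 in Ing2-/- testes, against 7.19, 7.38 and 7.23 in Ing2+/+ testes (difference 0.65, SE 0.185, limma adjusted p = 0.0733, and 0.0172 without replicate 3). Pgam1, the widely expressed phosphoglycerate mutase, had 8.59, 8.56, 9.45, 8.62 and 8.83 in Ing2-/- testes, against 8.20, 8.31 and 8.33 in Ing2+/+ testes (difference 0.53, SE 0.191, limma adjusted p = 0.119, and 0.0226 without replicate 3). In all 3 genes replicate 3 was the highest array by far. 

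The remaining somatic enzymes had smaller differences. Tpi1, which interconverts the triose phosphates, had 11.50, 11.55, 11.11, 11.45 and 11.49 in Ing2-/- testes, against 11.11, 11.16 and 11.19 in Ing2+/+ testes. The other 4 Ing2-/- testes lay above all Ing2+/+ testes, and replicate 3 was level with the lowest of these (difference 0.27, SE 0.103, limma adjusted p = 0.138, and 0.34 and 0.0101 without replicate 3). Pgam2, the muscle-type mutase that is also found in sperm, had 11.58, 11.54, 10.97, 11.53 and 11.55 in Ing2-/- testes, against 11.61, 11.59 and 11.71 in Ing2+/+ testes; its groups were separate, but the difference of -0.20 was -0.09 without replicate 3 (SE 0.139, limma adjusted p = 0.382 with all arrays). Pgk1, Aldoa, Pkm (pyruvate kinase) and Eno3 (the muscle enolase) had differences of 0.16, 0.04, 0.01 and -0.03, all with overlapping groups and a limma adjusted p of 0.450 or more. A second Pkm probe set gave 0.14 (limma adjusted p = 0.286), with all Ing2-/- arrays above all Ing2+/+ arrays, and 0.09 without replicate 3. It was numbered between those of Pgm2 and Slc2a9, on chromosome 5, while Pkm lies on chromosome 9. Without replicate 3 the differences of Pgk1, Pkm and Eno3 were 0.07, -0.02 and 0.09. The signs of Aldoa and Pkm turned when the arrays were shifted to an equal median.

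Some of these readings were limited by the probes. Hk3, a hexokinase of blood cells, and Eno2, the neuronal enolase, lay close to the median of probe sets with no gene symbol; Eno2 was below that median in all 8 arrays, and their differences were -0.04 (-0.07 without replicate 3) and -0.08. Hk1, the hexokinase of brain and many tissues with a germ cell isoform in the mouse, had a brightest probe set at 0.12 (limma adjusted p = 0.399), close to the 0.08 to 0.14 of 16 probe sets that it shared with Rpl17, a ribosomal protein gene. The other Hk1 probe set had 11.51, 11.44, 11.00, 11.43 and 11.27 in Ing2-/- testes, against 11.65, 11.65 and 11.67 in Ing2+/+ testes. This probe set pointed the other way, with separate groups (difference -0.32, SE 0.113, limma adjusted p = 0.110), so the 2 Hk1 probe sets gave opposite signs and their mean turned the sign of the gene. This other probe set was numbered beside that of Hkdc1, on chromosome 10 like Hk1. The brightest was numbered between those of Tkt and Pck2, on chromosome 14. Where the probes lie was not examined, so which of them reads Hk1 stays uncertain. Hk1 counts among the 10 somatic enzymes above 0, and among those that overlap, only through the brightest. Gapdh had 25 shared probe sets, whose mean level was 11.21, 11.21, 11.71, 11.26 and 11.39 in Ing2-/- testes, against 11.02, 11.00 and 10.96 in Ing2+/+ testes. Their differences lay between 0.26 and 0.40; in all 25 every Ing2-/- array lay above every Ing2+/+ array, 0 were called (limma adjusted p between 0.0815 and 0.159), and they had only 20 distinct profiles, so they are not 25 measurements. Pgk1 and Pgam1 had 3 probe sets each, of which 2 had the same values, and all 3 pointed the same way as the brightest.

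Each pair set a sperm form, or the form known from sperm or testis, against a more widely expressed gene of the same function. Pgam2, counted above with the somatic enzymes, stood here as the form known from sperm. The change of one was compared with the change of the other within each array, which removes any shift of a whole array. Of 11 pairs listed, 9 had both forms measured. In 8 of the 9 the difference was lower in every Ing2-/- array than in every Ing2+/+ array, and in 5 the exact two-sided permutation p, over 56 arrangements with a smallest possible value of 0.0179, was under 0.05. These p-values are unadjusted for the 9 pairs, and each of the 5 was over 0.05 when at least 1 of the arrays was left out (highest exact permutation p between 0.0952 and 0.19). How often other pairs of genes separate in this way was not computed. Among all single genes, every Ing2-/- array lay above every Ing2+/+ array in 16.7% and below in 14.9%. Whether 8 of 9 is particular to these pairs was therefore not tested. Values below are the difference between the 2 log2 levels relative to the Ing2+/+ mean.

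The widest was Ldhc minus Ldhb, with -0.82, -0.83, -2.07, -0.63 and -1.22 in Ing2-/- testes, against 0.20, -0.07 and -0.13 in Ing2+/+ testes (mean difference -1.11, exact permutation p = 0.0179, n = 5 and 3). This used the brighter of the 2 Ldhb probe sets. The other had a smaller difference of its own, 0.69, and 0.43 without Ing2-/- replicate 3. With the mean of both Ldhb probe sets the pair had -0.995 (exact permutation p = 0.0179). Ldhc minus Ldha had -0.05, -0.17, -0.08, -0.07 and -0.10 in Ing2-/- testes, against 0.05, -0.01 and -0.04 in Ing2+/+ testes (mean difference -0.09, exact permutation p = 0.0179). Thus Ldhc lay lower relative to either subunit in every Ing2-/- testis, by much more relative to Ldhb, and relative to Ldha the lowest Ing2+/+ testis was almost level with the highest Ing2-/- testis.

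Aldoart1 minus Aldoa had -0.51, -0.30, -1.13, -0.50 and -0.71 in Ing2-/- testes, against -0.01, 0.02 and -0.01 in Ing2+/+ testes (mean difference -0.63, exact permutation p = 0.0179). Aldoart2 minus Aldoa had -0.37, -0.33, -1.14, -0.26 and -0.46 in Ing2-/- testes, against -0.01, -0.02 and 0.03 in Ing2+/+ testes (mean difference -0.51, exact permutation p = 0.0536). Both aldolase retrogenes therefore lay lower relative to Aldoa in all Ing2-/- testes, and the 2 pairs share the Aldoa values, as the Ldhc pairs share Ldhc. Pdha2 minus Pdha1 had -0.48, -0.23, -1.67, -0.60 and -0.72 in Ing2-/- testes, against -0.09, 0.06 and 0.03 in Ing2+/+ testes (mean difference -0.74, exact permutation p = 0.0536). The X-linked Pdha1 had a difference of 0.37 of its own, with overlapping groups (limma adjusted p = 0.233), and of 0.24 without replicate 3.

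Pgam2 minus Pgam1 had a mean difference of -0.73 (exact permutation p = 0.0714), and -0.45 without Ing2-/- replicate 3, whose value was -1.83. The other Ing2-/- testes lay between -0.64 and -0.36, against -0.07 to 0.05 in Ing2+/+ testes. Pgk2 minus Pgk1 was the pair that overlapped, with -0.21, -0.13, -1.01, 0.01 and -0.32 in Ing2-/- testes, against -0.01, -0.06 and 0.07 in Ing2+/+ testes (mean difference -0.33, exact permutation p = 0.196). The mean difference was -0.16 without Ing2-/- replicate 3, and replicate 4 lay among the Ing2+/+ testes.

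**Figure D3:**
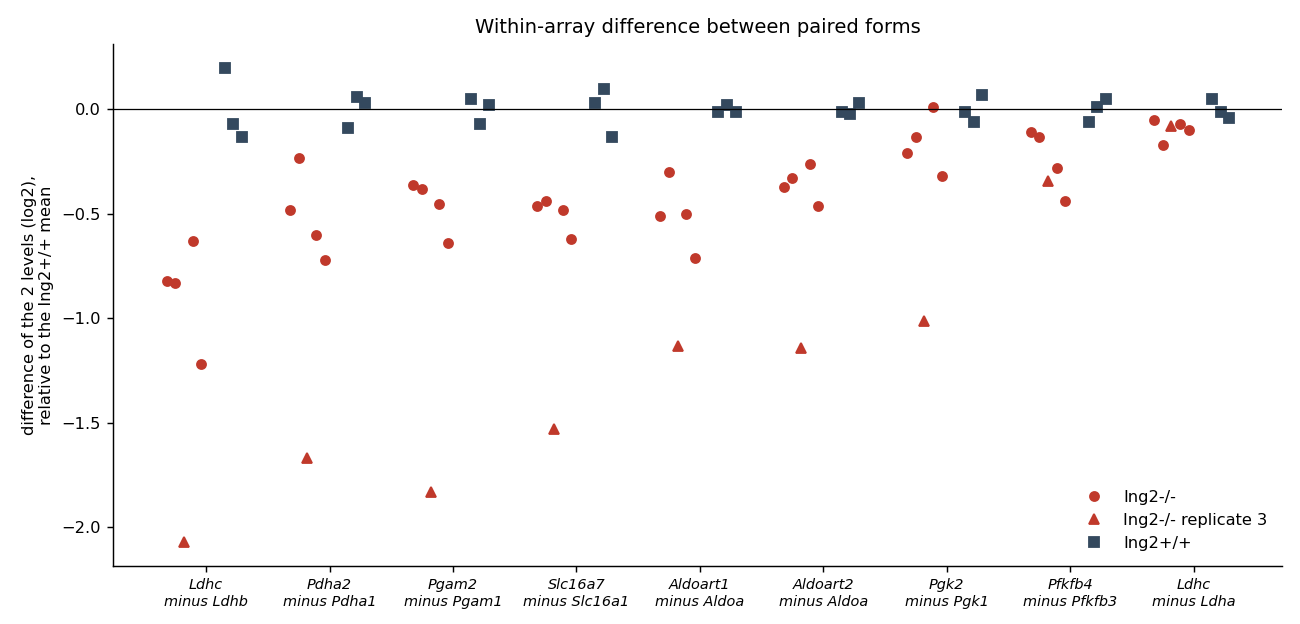
Difference in log2 level between the 2 genes of each pair within each array, relative to the Ing2+/+ mean, for Ing2-/- (red circles, replicate 3 as a triangle, n = 5) and Ing2+/+ (blue squares, n = 3) testes, in order of the mean difference. Ing2-/- testes lie below Ing2+/+ testes in 8 of the 9 pairs, and the Pgk2 and Pgk1 pair overlaps. The share among other pairs of genes was not computed.

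The promoters of the lactate dehydrogenase genes are shown because they hold the pair that parted most, and that of Pfkl because it was the called gene. Ldha and Ldhc are neighbours on chromosome 7 with 0 protein-coding genes between them, and Ldhb lies on chromosome 6. Each window runs from 250 bases before to 50 after a gene start in RefSeq (GRCm38.p6), 5′ to 3′ on the gene's strand; for Ldha and Ldhc the more upstream of the 2 listed starts is shown. Capitals mark TGACG, the half-site of the cAMP response element, and GGGCGG, the GC box, on either strand; in Ldha the 2 TGACG matches overlap on opposite strands, and in Pfkl the last 2 GC boxes share a base.
Ldhc (chr7:46861013-46861312, + strand): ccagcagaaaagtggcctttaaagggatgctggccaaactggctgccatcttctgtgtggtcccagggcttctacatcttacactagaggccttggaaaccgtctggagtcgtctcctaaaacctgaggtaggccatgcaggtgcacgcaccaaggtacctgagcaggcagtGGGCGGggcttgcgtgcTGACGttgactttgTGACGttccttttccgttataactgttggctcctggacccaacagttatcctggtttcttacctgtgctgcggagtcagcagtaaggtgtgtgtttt
Ldha (chr7:46845554-46845853, + strand): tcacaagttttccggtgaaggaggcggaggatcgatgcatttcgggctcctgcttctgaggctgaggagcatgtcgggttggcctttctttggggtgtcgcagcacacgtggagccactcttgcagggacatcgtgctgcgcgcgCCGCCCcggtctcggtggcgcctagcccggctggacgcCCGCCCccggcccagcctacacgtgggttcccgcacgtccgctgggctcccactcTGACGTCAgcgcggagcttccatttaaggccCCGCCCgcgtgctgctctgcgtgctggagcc
Ldhb (chr6:142507908-142508207, - strand): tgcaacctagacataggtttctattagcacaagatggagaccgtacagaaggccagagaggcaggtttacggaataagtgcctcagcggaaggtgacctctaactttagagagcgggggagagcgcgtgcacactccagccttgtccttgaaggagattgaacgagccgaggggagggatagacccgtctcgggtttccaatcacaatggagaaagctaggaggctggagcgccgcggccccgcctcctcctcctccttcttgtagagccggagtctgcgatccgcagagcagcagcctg
Pfkl (chr10:78009758-78010057, - strand): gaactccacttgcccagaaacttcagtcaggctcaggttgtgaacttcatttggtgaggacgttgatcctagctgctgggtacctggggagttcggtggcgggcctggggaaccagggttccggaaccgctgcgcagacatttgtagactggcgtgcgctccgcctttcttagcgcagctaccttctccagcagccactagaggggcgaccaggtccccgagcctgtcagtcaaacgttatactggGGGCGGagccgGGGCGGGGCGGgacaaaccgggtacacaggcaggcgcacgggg

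Ldhc held 2 TGACG and 1 GGGCGG, Ldha 2 and 3, Ldhb none of either, and Pfkl 3 GGGCGG. Of all 32851 windows of this length, 20.8% held a TGACG and 35.7% a GGGCGG. Windows were found for 32 of the 36 genes. A GGGCGG was in 1 of 8 windows of sperm isozymes and in 14 of 31 of somatic enzymes, and a TGACG was in 2 of 8 and 4 of 31. The sperm genes with a TGACG were Gapdhs and Ldhc. These are letter matches and no binding was measured.

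The carriers had differences on both sides of 0 and 0 of 7 were called, beside 1.97% of all genes called higher and 3.01% lower. Every Ing2-/- array lay above every Ing2+/+ array in 3 of the 7 and below in 2. Of all genes, 16.7% lay above and 14.9% below. Slc2a1 (GLUT1), the glucose carrier of Sertoli and many other cells, had 8.15, 8.01, 8.42, 7.86 and 8.06 in Ing2-/- testes, against 7.56, 7.63 and 7.81 in Ing2+/+ testes. All Ing2-/- testes lay above, the lowest by little (difference 0.43, SE 0.121, limma adjusted p = 0.0721, and 0.0349 without Ing2-/- replicate 3). Slc2a3 (GLUT3), a glucose carrier found in germ cells, had 12.32, 12.26, 11.87, 12.22 and 12.16 in Ing2-/- testes, against 12.37, 12.37 and 12.39 in Ing2+/+ testes (difference -0.21, and -0.14 without replicate 3, SE 0.101, limma adjusted p = 0.209 with all arrays). All of those lay below, by little outside replicate 3. Slc2a8 (GLUT8), a carrier of spermatids and other tissues, had a difference of -0.10 with overlapping groups (limma adjusted p = 0.625), and of -0.03 without replicate 3.

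Lactate passes between cells through the monocarboxylate transporters. Slc16a1 (MCT1) had 8.87, 8.72, 9.43, 8.90 and 8.99 in Ing2-/- testes, against 8.55, 8.44 and 8.57 in Ing2+/+ testes (difference 0.46, SE 0.145, limma adjusted p = 0.0901, and 0.024 without Ing2-/- replicate 3). Slc16a3 (MCT4), an exporter of lactate, had 7.32, 7.41, 7.50, 7.26 and 7.36 in Ing2-/- testes, against 7.21, 7.07 and 7.18 in Ing2+/+ testes (difference 0.21, SE 0.0734, limma adjusted p = 0.107). Slc16a7 (MCT2), the carrier of the sperm tail, had 11.71, 11.58, 11.21, 11.72 and 11.68 in Ing2-/- testes, against 11.88, 11.85 and 11.74 in Ing2+/+ testes (difference -0.24, and -0.15 without replicate 3, SE 0.120, limma adjusted p = 0.223 with all arrays). Thus all Ing2-/- testes were above all Ing2+/+ testes in Slc16a1 and Slc16a3 and below them in Slc16a7. Slc16a7 minus Slc16a1 had -0.46, -0.44, -1.53, -0.48 and -0.62 in Ing2-/- testes, against 0.03, 0.10 and -0.13 in Ing2+/+ testes (mean difference -0.71, exact permutation p = 0.0179). Bsg, the chaperone basigin that brings MCT1 and MCT4 to the membrane, had a difference of 0.08 with overlap (SE 0.066, limma adjusted p = 0.456).

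The 2 regulators are bifunctional enzymes that set the level of the sugar phosphate that turns phosphofructokinase on. Pfkfb3 ranged over 8.72 to 9.05 in Ing2-/- testes, against 8.81 to 8.89 in Ing2+/+ testes (difference 0.08, and 0.14 without replicate 3, limma adjusted p = 0.559 with all arrays). Pfkfb4, the form known as the testis isozyme, ranged over 8.63 to 9.17 in Ing2-/- testes, against 9.05 to 9.15 in Ing2+/+ testes (difference -0.18, and -0.11 without replicate 3, limma adjusted p = 0.383 with all arrays). Each gene alone overlapped, but Pfkfb4 minus Pfkfb3 did not, with -0.11, -0.13, -0.34, -0.28 and -0.44 in Ing2-/- testes, against -0.06, 0.01 and 0.05 in Ing2+/+ testes (mean difference -0.26, exact permutation p = 0.0357).

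Genes next to glycolysis were looked at through a list of 82 genes of glycogen, gluconeogenesis, the pentose phosphate branch, pyruvate dehydrogenase and sugar transport, of which 73 were measured. By limma 3 of the 73 were called higher and 1 lower, beside 1.97% and 3.01% of all genes, with a median difference of 0.12. Gbe1, the glycogen branching enzyme, fell to 6.67, 6.61, 7.36, 7.50 and 7.03 in Ing2-/- testes, against 8.49, 8.57 and 8.55 in Ing2+/+ testes. This was a fold of 2.82 and the call was not carried by replicate 3, which was not the lowest (difference -1.50, SE 0.203, limma adjusted p = 0.0128, and 0.00449 without replicate 3). Leaving out Ing2+/+ replicate 1 or 2 took the adjusted p to 0.0698 or 0.0717.

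The 3 genes called higher were Pgd and Taldo1, enzymes of the pentose phosphate pathway, and Emb, embigin, which is a membrane partner of the lactate carriers like basigin. Emb had 8.0, 7.77, 8.90, 7.78 and 7.94 in Ing2-/- testes, against 6.87, 6.94 and 6.92 in Ing2+/+ testes, a fold of 2.25 (difference 1.17, SE 0.237, limma adjusted p = 0.0346). Pgd had 8.95, 8.92, 9.61, 8.96 and 9.17 in Ing2-/- testes, against 8.28, 8.39 and 8.44 in Ing2+/+ testes (difference 0.75, SE 0.154, limma adjusted p = 0.0357). Taldo1 had 7.27, 7.20, 7.75, 7.08 and 7.27 in Ing2-/- testes, against 6.51, 6.74 and 6.80 in Ing2+/+ testes (difference 0.63, SE 0.145, limma adjusted p = 0.0470). The groups did not overlap in any of the 3 genes, and all 3 lost their call when Ing2-/- replicate 1 or 5 or any Ing2+/+ array was left out (limma adjusted p between 0.0518 and 0.171), Taldo1 also without Ing2-/- replicate 2 (0.0639).

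Markers of the cell types were read in the same testes. A list was scored in each array by averaging, across its genes, how far the level lay from the Ing2+/+ mean. This score was 0.40 to 1.22 for 10 Sertoli cell markers in Ing2-/- testes, against -0.02 to 0.01 in Ing2+/+ testes, and 1 of the 10 was called higher. For 6 Leydig cell markers it was 0.39 to 1.09 in Ing2-/- and -0.05 to 0.03 in Ing2+/+ testes, with 5 of the 6 called higher. Of all genes, 1.97% were called higher and 3.01% lower. Macrophage markers (6 genes) had 0.16 to 0.71 in Ing2-/- and -0.01 to 0.01 in Ing2+/+ testes, and 10 spermatogonial markers had 0.11 to 0.42 and -0.03 to 0.03, with 0 called in either list. Peritubular myoid markers (5 genes) had 0.08 to 0.62 in Ing2-/- and -0.05 to 0.04 in Ing2+/+ testes, with 0 called, and 5 endothelial markers had 0.16 to 0.33 and -0.07 to 0.05, with 1 called higher. The 1 red blood cell marker that was measured, of 3, had 0.29 to 0.68 in Ing2-/- and -0.10 to 0.11 in Ing2+/+ testes and was not called. All of these scores but that of the red blood cell marker were highest in Ing2-/- replicate 3. Without it the highest Ing2-/- score was 0.64 for Sertoli cells, 0.85 for Leydig cells and 0.50 for macrophages. It was then 0.25 for spermatogonia, 0.27 for peritubular myoid cells and 0.30 for endothelial cells.

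Markers of meiotic and later germ cells lay on the other side. The score was -0.61 to -0.14 for 9 pachytene spermatocyte markers in Ing2-/- testes, against -0.04 to 0.03 in Ing2+/+ testes. Of the 9, 1 was called lower, beside 3.01% of all genes. For 10 round spermatid markers it was -0.90 to -0.11 in Ing2-/- and -0.01 to 0.00 in Ing2+/+ testes, with 1 called lower, and for 10 elongating spermatid markers it was -0.47 to -0.08 and -0.03 to 0.03, with 0 called. Without Ing2-/- replicate 3 the lowest Ing2-/- score was -0.33 for pachytene spermatocytes, -0.33 for round spermatids and -0.25 for elongating spermatids. No marker of these lists was at or under the median of the unnamed probe sets in every array. Among the Ing2-/- testes, every sperm isozyme was lowest in replicate 3, as were these germ cell scores. The somatic enzymes went both ways there. Tpi1, Pfkm, Pfkp, Pgam2, Eno3 and Ldha were lowest in replicate 3, and Ldhb, Pfkl, Hk2, Hk3, Aldoc, Pgam1 and Pgk1 were highest. The carriers Slc2a1, Slc16a1 and Slc16a3 were highest in it, and Slc2a3, Slc2a8, Slc16a7 and Bsg were lowest. The scores of all 6 lists above other than the red blood cell marker were highest in the same array. The part of the cell mix in these differences was not tested.

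**Figure D4:**
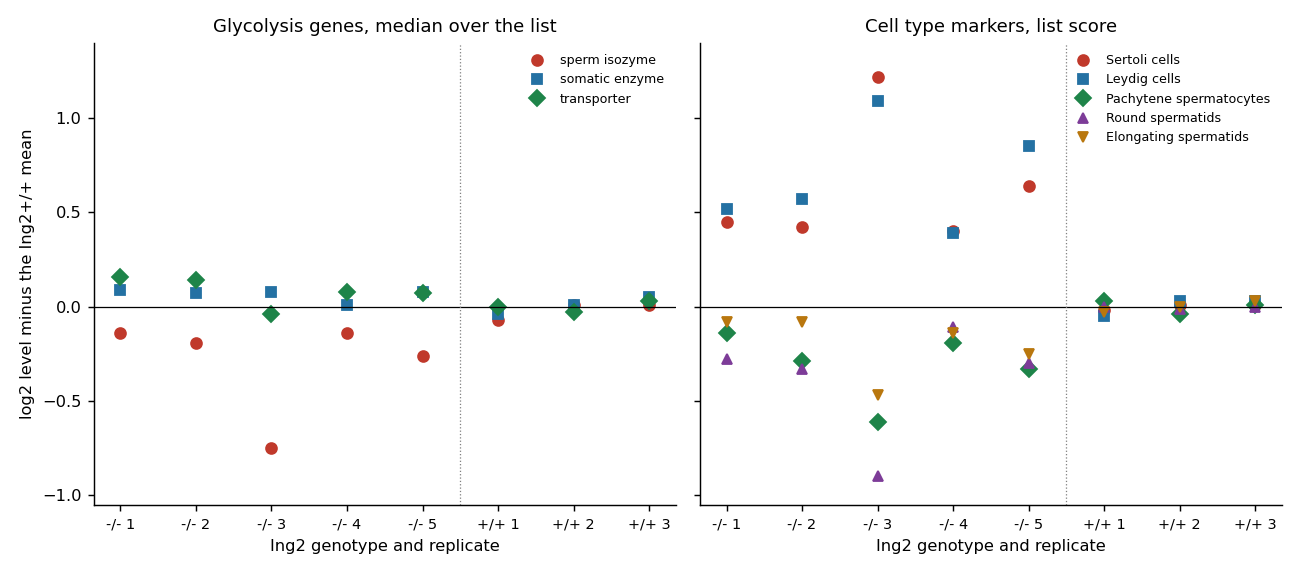
Left, median over 7 sperm isozymes, 17 somatic enzymes and 7 transporters of the log2 level minus the Ing2+/+ mean, in each Ing2-/- (-/-) and Ing2+/+ (+/+) array; right, the mean of the same quantity over the markers of 5 cell types. The sperm isozyme median is lowest in Ing2-/- replicate 3 (-0.75), the array in which Sertoli (1.22) and Leydig (1.09) scores are highest and the round spermatid score (-0.90) is lowest.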

How the data were processed

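RNA from whole testes (5 Ing2-/- and 3 Ing2+/+ mice) was profiled on Affymetrix Mouse Gene 1.0 ST arrays. The authors ran RMA in Affymetrix Expression Console; its version was not given in the sources used here. They summarized the probes by gene and annotated them with NetAffx. The deposited log2 values of all 35557 probe sets were taken without further scaling or centring. RMA makes each level relative to the rest of that testis, so that a change in total RNA is not seen. The number of arrays sets the precision.

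Gene names came from the platform's annotation of the probe sets (21789 with 1 symbol, 1621 with several, 12147 with none), with symbols updated through gene identifiers for 21698. A gene was its brightest probe set with 1 symbol by mean over the 8 arrays. Every probe set entered the limma fit (version 3.58.1, lmFit then eBayes, under R 4.3.3) with genotype as the single term, and p-values were adjusted by Benjamini-Hochberg across the array. The same code was tested on simulated data. Pairs were compared by exact two-sided permutation of the arrays between groups. Plots used Python 3.11.15 and matplotlib 3.10.9.

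The genes, roles, pairs, the wider list and the marker lists came from general knowledge and were chosen with earlier results of these data known. Every measured member was named, with the partners of the pairs, every called gene of the wider list, and Ing2. Alternatives were each array left out, the replicate number as a block, cyclic loess, an equal median of all arrays, a gene's mean over its probe sets, only probe sets above the median level, an intensity trend with robust estimation, unmoderated variances, array weights, and the methods' t-test with the random variance model at an unadjusted p under 0.001 and after Benjamini-Hochberg adjustment. The alternatives for the wider list were chosen after seeing the data.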

Additional observations from a re-analysis of the deposited data

Results flagged for a closer look

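In 13 of 44 sets of 5 Ing2-/- values tested (35 genes and 9 pairs), 1 array lay so far from the rest that its gap to the nearest other array, as a share of the whole range of the 5, passed the critical value of 0.71; chance gives about 1 in 20. In all 13 it was Ing2-/- replicate 3. The array was farthest above in Hk2 (share 0.874) and Pfkl (0.791). It was farthest below in Pgam2 (0.915), Pdha2 (0.814), Ldha (0.799), Aldoart2 (0.763), Tpi1 (0.759), Gapdhs (0.758), Ldhc (0.741) and Slc16a7 (0.734), and in the within-array differences Slc16a7 minus Slc16a1 (0.835), Pgam2 minus Pgam1 (0.812) and Aldoart2 minus Aldoa (0.766). The values share 1 array and are not independent of each other. The Ing2+/+ group, with 3 arrays, was too small for this measure.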

How the results depend on the processing

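The number of arrays limits these results. With all arrays, 1 of 33 genes was called higher and 0 lower. Leaving out 1 array gave between 0 and 8 higher and between 0 and 4 lower; without Ing2-/- replicate 3 they were 8 and 4, without replicate 4 there were 2 higher, without replicate 2 there was 1 lower, and without Ing2-/- replicate 1, 2 or 5 or any Ing2+/+ array there were 0 higher. Other settings gave 2 higher with cyclic loess, 2 higher and 1 lower when dim probe sets under the median level were dropped, 0 higher with unmoderated variances or by the methods' t-test at an unadjusted p under 0.001, and 8 higher and 4 lower with array weights. For the 73 wider genes (3 higher and 1 lower), alternatives chosen after seeing the data gave between 0 and 14 higher and between 0 and 5 lower with 1 array left out, 14 and 5 of them without Ing2-/- replicate 3; 5 and 2 with dim probe sets dropped; 0 and 0 with unmoderated variances; 16 and 6 with array weights; and 2 lower with cyclic loess or an equal median. Without Ing2-/- replicate 3, 8.72% of all genes were called higher and 7.76% lower. Array weights gave that replicate 0.212, against 0.851 to 2.05 for the other arrays. The share of all genes called with array weights was not computed. With an equal median Taldo1 missed the threshold (limma adjusted p = 0.0502), as it did with the intensity trend (0.0531).

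Same-numbered arrays showed little shared deviation (correlations -0.06, 0.18 and 0.01), although so few arrays cannot exclude a pairing by number. With the replicate block 0 of 33 genes were called in either direction and 0 of the wider list, and Pfkl had 0.80 (limma adjusted p = 0.108). The sperm isozyme median lay between -0.34 and -0.16 with 1 array left out. The somatic median of 0.04 lay between -0.0161 and 0.0734 with 1 array left out, and was 0.0676 with the replicate block, 0.0901 with cyclic loess and -0.0158 with an equal median, which shifted the median of all genes to -0.03. All 7 sperm isozymes stayed below 0 under each of these scalings.

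The pairs kept their direction with each array left out. Ranges were -1.24 to -0.88 for Ldhc minus Ldhb, -0.87 to -0.51 for Pdha2 minus Pdha1, -0.82 to -0.45 for Pgam2 minus Pgam1, -0.77 to -0.50 for Slc16a7 minus Slc16a1, -0.71 to -0.51 for Aldoart1 minus Aldoa, -0.58 to -0.36 for Aldoart2 minus Aldoa, -0.41 to -0.16 for Pgk2 minus Pgk1, -0.30 to -0.22 for Pfkfb4 minus Pfkfb3 and -0.110 to -0.0699 for Ldhc minus Ldha. All 5 pairs with an exact permutation p under 0.05 passed it without some array, where the smallest possible p is 0.0286 (4 and 3 arrays) or 0.0476 (5 and 2). The highest p was 0.0952 for Ldhc minus Ldhb, Aldoart1 minus Aldoa and Pfkfb4 minus Pfkfb3, 0.143 for Ldhc minus Ldha and 0.19 for Slc16a7 minus Slc16a1. The p was over 0.05 without any 1 array for Pfkfb4 minus Pfkfb3; without any Ing2+/+ array for the others except Ldhc minus Ldha, where Ing2+/+ replicate 1 alone did this; and without Ing2-/- replicates 1 and 2 (Ldhc minus Ldhb), 1, 4 and 5 (Aldoart1 minus Aldoa), 1 (Slc16a7 minus Slc16a1) or 3, 4 and 5 (Ldhc minus Ldha), each left out alone. The causes of these changes were not tested.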
